A study of Rattus norvegicus with 14 samples.

Results

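The distal part of rat chromosome 7, from 112 to 130 Mb on the assembly rn7, was examined in aged soleus muscle of rats bred for running capacity, in a high-capacity (HCR) and a low-capacity (LCR) line. Its members were the 1000 bp windows of the deposited methylation table that start after 112 Mb and end by 130 Mb. There were 2425 of them, or 1.25% of the 194367 windows of the table, and 1719 had a value in every sample. The interval was chosen by the density of windows that differed between the lines in an earlier analysis of these same samples. Every difference in methylation between HCR and LCR below is therefore a description of what led to that choice, is given without a p-value, and supports nothing beyond itself.

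All 14 samples were left soleus, a calf muscle made largely of slow fibres and used for standing, from female rats 23 to 24 months old, taken at baseline. The 6 HCR and 8 LCR samples came from generation 44 of selective breeding that started from the genetically heterogeneous N:NIH stock, and both lines had free access to chow and water. Nothing in the labels states that each numbered replicate was a different rat, so the spread between samples may in part be technical. Methylation was read by reduced representation bisulfite sequencing (RRBS), in which MspI cuts DNA at CCGG and bisulfite converts unmethylated cytosines. The samples were muscle tissue, so a level averages all cell types present, and a change in the mixture of cells cannot be told apart from a change within cells.

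In mammals methylation is placed mostly on cytosines followed by guanine. CpG-rich stretches, many of them at gene starts, are usually kept free of it, and most other CpGs are methylated. A window at an intermediate level holds a mixture of methylated and unmethylated reads, which can come from different cells, different alleles or different CpGs of the window. Stretches of a chromosome are inherited together, and breeding in closed lines makes such stretches alike within a line, so neighbouring windows are not independent observations.

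Read depth was unknown, because the table holds percentages without counts. Libraries had values in 170846 to 191662 windows, and their mean autosomal level ranged from 33.0% to 36.7%, with HCR libraries on average 1.13 percentage points above LCR libraries. This is a difference of library means and was not the same in every window. HCR had the higher mean in 64.8% of autosomal windows as deposited and in 41.2% after this difference was removed. The main line comparisons are given as deposited and again with each library centred on its autosomal mean. The 2 most alike samples differed by 4.91 points on average over the interval, so no library appeared more than once.

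The interval resembled the rest of the genome in its overall level and was richer in covered windows. It held 135 windows per Mb, against 76.4 on the rest of chromosome 7. Its mean level was 34.97%, against 33.8% on the rest of chromosome 7 and 34.96% over all autosomes. Windows under 10% methylation made up 25.5% of the interval and 27.2% of the autosomes, and windows at 70% or more made up 10.4% and 10.5%. The spread between samples of a line was similar as well, with a median SD per window of 4.68 points among HCR samples and 4.54 among LCR samples, against 4.39 and 4.33 over the autosomes.

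Among members of the interval, the number without a value did not differ detectably between the lines. Every member has a value in at least 4 samples of each line, so windows with fewer values in either line were not counted. The number of members without a value was 123 ± 59.9 per HCR sample (SD, n = 6), and 122 ± 88.5 per LCR sample (SD, n = 8). These means were 0.917 windows apart, with p = 0.984 in a two-sided exact permutation test of all 3003 divisions of the samples.

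At both ends of the interval the lines lay within the spread of their samples, inside and outside. At the start, the first member, at 112000001 to 112001000, averaged 51.0% ± 5.95 in the 4 HCR samples with a value and 57.7% ± 9.26 in 5 LCR samples. The last window before it, at 111996001 to 111997000, had 72.5% ± 2.70 over the 6 HCR samples (SD) and 70.6% ± 8.13 over the 8 LCR samples (SD). At the other end, the last member, at 129993001 to 129994000, had 51.2% ± 3.86 (SD, n = 5) and 51.6% ± 7.47 (SD, n = 7). The next window, at 130001001 to 130002000, had 68.4% ± 18.6 (SD, n = 6) and 68.4% ± 18.3 (SD, n = 8).

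Over the whole interval HCR samples were slightly more methylated than LCR samples, and the lines overlapped. As deposited, the 1719 common windows averaged 35.9% ± 1.23 over the 6 HCR samples (SD) and 34.3% ± 1.29 over the 8 LCR samples (SD), a difference of 1.59 points (SE 0.679). HCR samples ran from 33.8% to 37.2% and LCR samples from 32.5% to 36.4%, so the ranges overlapped over most of their length. After centring, the difference was 0.461 points (SE 0.159), with HCR samples from 34.8% to 35.6% and LCR samples from 34.4% to 35.2%. On the rest of chromosome 7 the centred difference was -0.043 points (SE 0.030).

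Most windows of the interval had line means close to each other, and the larger differences lay mostly on one side. Line means were at least 10 points apart in 97 of 1719 windows, 80 higher and 17 lower in HCR. As shares of the common windows these were 4.65% and 0.989%, where all windows tested gave 2.85% and 1.06%. After centring they were 60 higher and 22 lower, or 3.49% and 1.28%, against 2.05% and 1.42% over all windows. Counting every window whatever its size of difference, 44.9% of the interval's windows had the higher centred mean in HCR, against 41.2% over all autosomes.

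A window was called where limma, fitted on all 135802 windows with a value in every sample, gave a Benjamini-Hochberg adjusted p under 0.05. In the interval 25 of 1719 windows were called, 22 higher and 3 lower in HCR, where 0.569% of all tested windows were called, 0.405% higher and 0.164% lower. Since these calls led to the choice of the interval, their number is not read against that background. After centring 19 of the 25 were called, 16 higher and 3 lower, and 0 further windows were added (0.493% of all windows tested, 0.252% higher and 0.242% lower). Without HCR replicate 2 there were 16 calls, and 14 of the 25 windows kept their call whichever sample was left out.

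Called windows lay at all levels, with the largest number between 10 and 30%. By their mean over all samples, 1 of the 439 common windows under 10% was called, 11 of 360 from 10 to 30%, 7 of 318 from 30 to 50%, 5 of 423 from 50 to 70% and 1 of 179 at 70% or more. In 9 called windows the LCR mean was under 15%, and 6 of these had an HCR mean over 20%. The HCR mean was under 15% in 3. The median size of the 25 differences was 18.8 points.

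**Figure D1:**
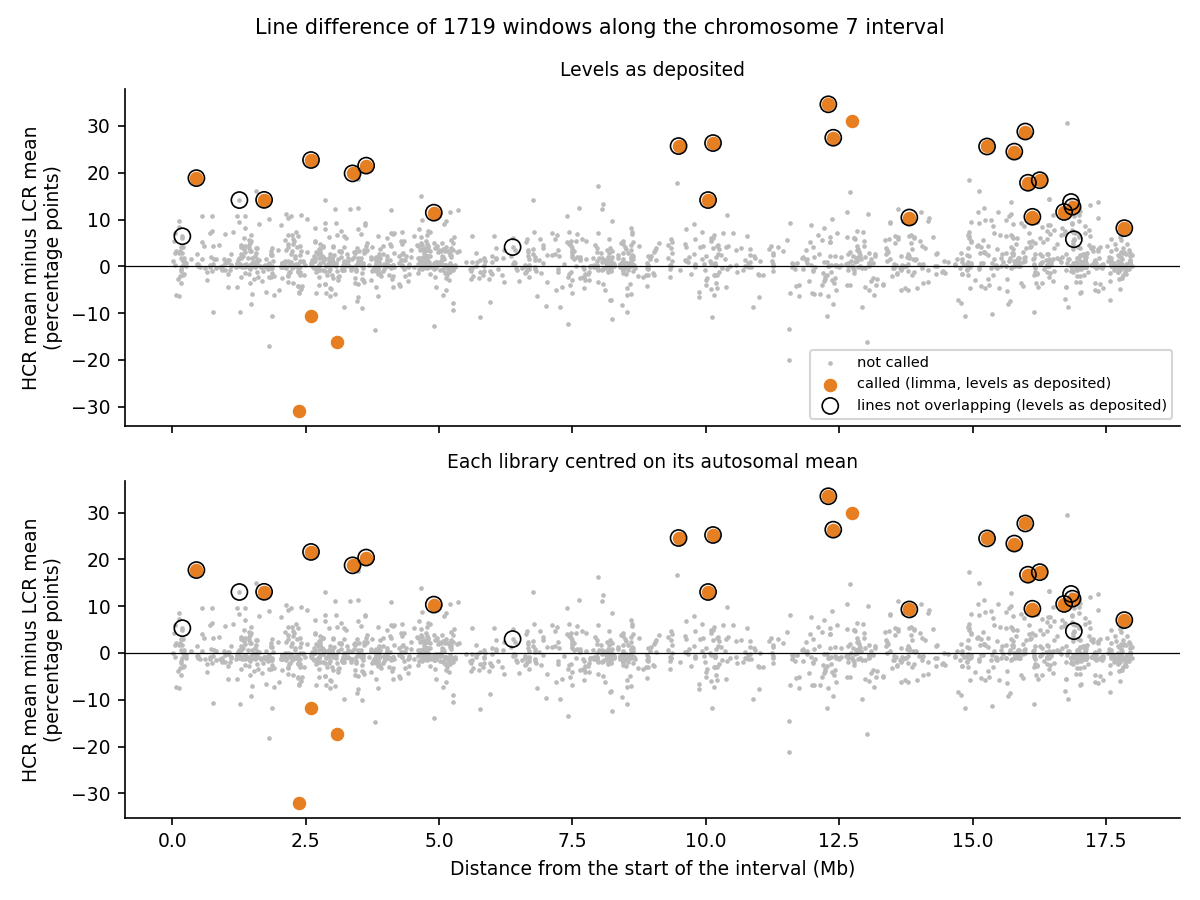
Difference between the HCR and LCR means, in percentage points, of each of the 1719 windows with a value in every sample, against its distance from the start of the interval in Mb. Orange points are the 25 called windows and black circles the 26 windows in which the lines do not overlap, both judged on levels as deposited; the upper panel shows deposited and the lower panel centred differences, and the 3 called windows below 0 all lie in the first 5 Mb.

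The widest gap between the lines was at 124296001 to 124297000. HCR samples ran from 37.8% through a median of 44.9% to 47.0%, and LCR samples from 2.59% through 7.75% to 18.7%. Every HCR sample was therefore well above every LCR sample, with 19.2 points between the nearest ones. The means were 43.2% ± 4.06 (SD, n = 6) and 8.62% ± 4.54 (SD, n = 8), a difference of 34.6 points as deposited and 33.5 after centring. The highest LCR value belonged to LCR replicate 4, while the other LCR samples stayed at or below 9.25%. The touching window at 124297001 to 124298000 was nearly unmethylated in both lines, at 3.30% ± 1.89 and 3.24% ± 2.30, so the difference did not extend into it.

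Around 92 kb further on, at 124388001 to 124389000, HCR samples were tightly grouped and LCR samples were not. HCR samples ran from 59.8% through 65.6% to 66.9%, and LCR samples from 19.4% through 37.2% to 51.3%. The lines did not overlap, and the SD was 2.66 points in HCR and 10.3 in LCR. The difference of the means was 27.5 points.

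At 124730001 to 124731000 the spread lay on the other side. LCR samples were all nearly unmethylated, from 1.11% through 1.68% to 2.86%. HCR samples ran from 2.00% through 35.1% to 58.1%, so their mean of 32.9% ± 20.98 (SD, n = 6) describes no single sample well. HCR replicate 1, at 2.00%, lay among the LCR samples, HCR replicate 6 stood at 16.7%, and the others were at 31.7% or more.

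A similar spread among HCR samples was seen at 127781001 to 127782000 and 127987001 to 127988000. At the former, HCR samples ran from 13.3% through 25.4% to 50% and LCR samples from 2.54% through 5.33% to 12.3%. At the latter, they ran from 17.9% through 42.4% to 56.0% and from 5.40% through 11.1% to 14.9%. In both windows the lines did not overlap, by margins of 1.08 and 2.92 points. HCR replicates 1 and 6 were the lowest 2 HCR samples in both, as they were at 124730001 to 124731000. The order of the other HCR samples differed, as HCR replicate 2 was highest in the former window and HCR replicate 4 in the latter.

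The window before the last of these, at 127986001 to 127987000, was not called but ranked its HCR samples in nearly the same order. It averaged 39.7% ± 12.3 over the 6 HCR samples (SD) and 21.9% ± 5.83 over the 8 LCR samples (SD), a difference of 17.8 points. HCR replicate 6 was lowest at 21.8%, followed by HCR replicate 1 at 29.2%, and HCR replicate 5 was highest at 53.4%. Over the 14 samples, after removal of the line means, its correlation with the called window was r = 0.85, on levels as deposited. Windows that touch can be covered by the same reads at their boundary, and the part of this in the correlation was not tested. On the other side, the window at 127988001 to 127989000 had 28.8% ± 13.9 and 27.8% ± 12.0, a difference of 1.08 points, and its correlation with the called window was 0.11.

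The called windows between 121 and 123 Mb had different levels in LCR. At 122135001 to 122136000 LCR samples ran from 5.78% through 9.999% to 21.04% and HCR samples from 23.5% through 36.6% to 46.9%. At 121489001 to 121490000 the ranges were 33.7% through 39.3% to 47.2% in LCR and 55.8% through 67.4% to 73.9% in HCR. The lines did not overlap in either, and the differences were 26.3 and 25.7 points. The third window there, at 122042001 to 122043000, was called on deposited levels only and had a difference of 14.2 points.

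At 127270001 to 127271000 the lines were 8.33 points apart at their nearest samples. HCR samples ran from 46.2% through 52.7% to 65.9%, and LCR samples from 21.1% through 29.1% to 37.8%. The difference of the means was 25.6 points. The next window, at 127271001 to 127272000, had values in 11 samples and averaged 82.0% ± 3.82 over 5 HCR samples (SD) and 73.7% ± 5.34 over 6 LCR samples (SD).

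Near the proximal end, 2 touching called windows differed in opposite directions. At 114600001 to 114601000 HCR samples ran from 1.37% through 6.30% to 9.35% and LCR samples from 8.90% through 16.1% to 23.6%. HCR was lower by 10.7 points there, and the ranges met only where the highest HCR sample passed the lowest LCR sample. In the adjacent window at 114601001 to 114602000 HCR samples ran from 54.1% through 63.0% to 71.1% and LCR samples from 26.5% through 39.4% to 53.2%. HCR was higher by 22.7 points, with no overlap, and the nearest LCR sample was LCR replicate 4. Within lines the correlation of the 2 windows was near 0 (r = -0.06 over 14 samples, on levels as deposited). This was the only touching pair among the 25 called windows. The lower window of the pair was called in 2 of 14 fits without single samples, and the higher one in all 14.

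The other windows lower in HCR lay on either side of this pair. At 114378001 to 114379000 the HCR samples were almost free of methylation, with 4 at 0 and HCR replicate 3 highest at 16.7%. LCR samples ran from 3.58% through 36.2% to 47.6%, and the lowest was LCR replicate 4. The means were 2.97% ± 6.73 (SD, n = 6) and 33.8% ± 13.9 (SD, n = 8), a difference of -30.8 points. The lines overlapped only through these 2 samples. At 115089001 to 115090000 HCR samples ran from 44.7% through 50.4% to 59.3% and LCR samples from 56.7% through 71.8% to 73.9%. LCR replicates 7 and 8, at 56.7% and 57.7%, lay within the HCR range, and the other LCR samples were above it. That call was kept in 3 of the 14 fits that left out a sample.

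Last of the 10 upward differences named by size, the window at 115634001 to 115635000 had HCR samples from 50% through 58.0% to 60.2% and LCR samples from 25% through 32.9% to 48.8%. LCR replicate 1 was the nearest to HCR, and the lines were separated by 1.22 points. The remaining 12 called windows were all higher in HCR, by 8.15 to 19.8 points, and in all 12 the lines did not overlap. Their HCR means ran from 13.8% to 81.2% and their LCR means from 5.65% to 62.9%, and 6 of them were also called after centring. The highest of them in level, at 128258001 to 128259000, had 81.2% ± 3.62 over the 6 HCR samples (SD) and 62.9% ± 3.94 over the 8 LCR samples (SD), with 8.68 points between the nearest samples.

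**Figure D2:**
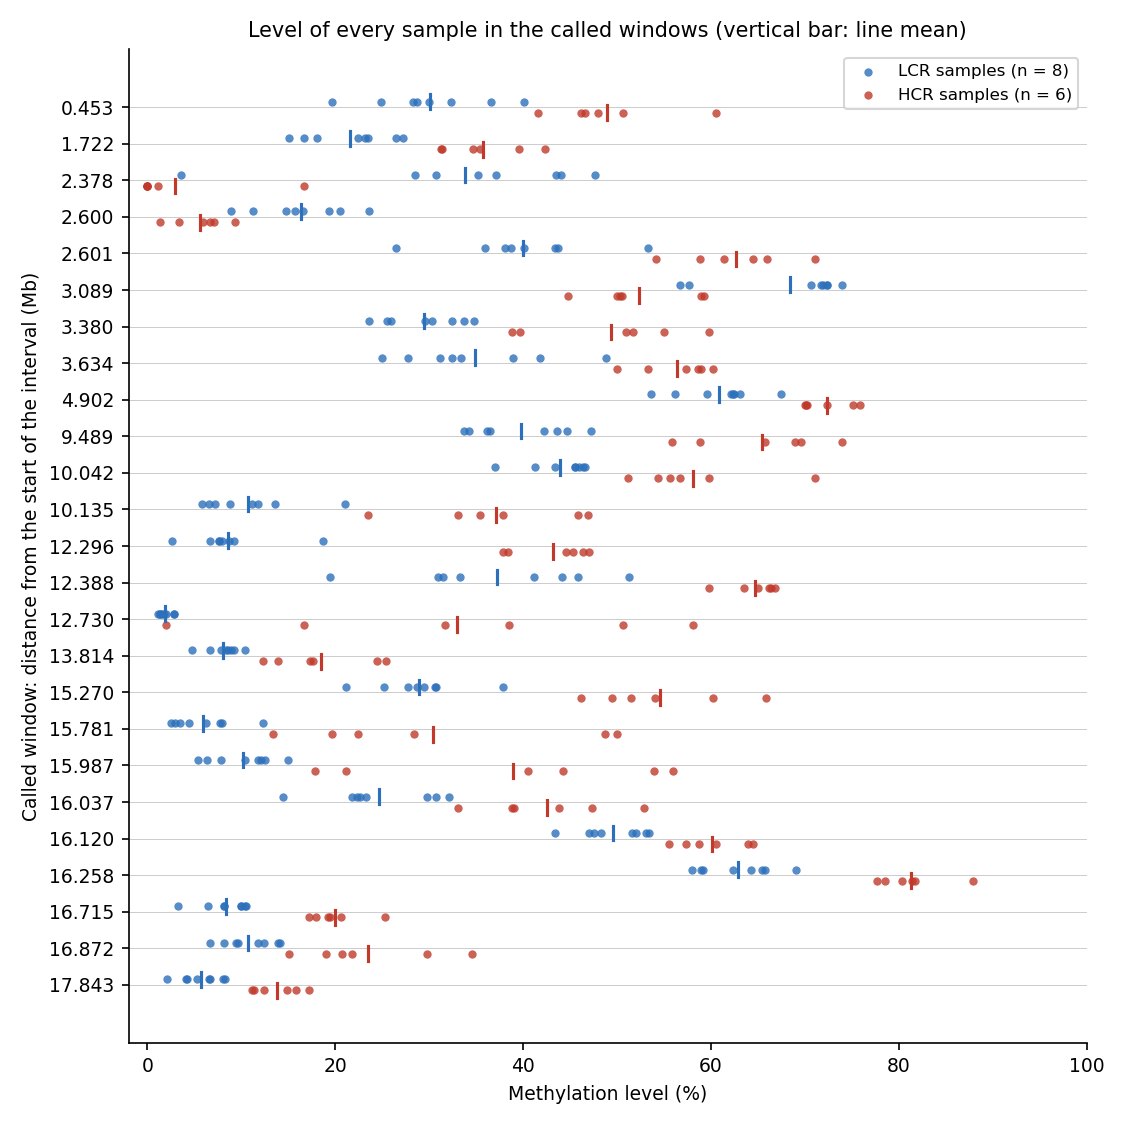
Methylation level, in percent, of every sample in the 25 called windows, 1 window per row in order along the chromosome, with the distance from the start of the interval in Mb at the left. Red points are the 6 HCR and blue points the 8 LCR samples, and vertical bars are line means; in most rows the colours separate, while the row at 12.73 Mb shows HCR samples spread from 2.00% to 58.1% over LCR samples near 0.

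Fully separated windows gave a similar picture without a model. In 26 of 1719 windows all HCR samples lay above all LCR samples and in 0 all lay below, where 0.558% and 0.152% of all windows tested did so (0.71% in either direction). Of the 26, 21 were among the called windows. The gap between the nearest samples of the 2 lines had a median of 2.33 points and ran from 0.0689 to 19.2 points. Leaving out a sample can only keep or add separated windows, and 27 to 42 were separated when single samples were left out. The 42, of which 41 were separated upwards, came without HCR replicate 3. The share over all windows is not given for these settings, so the rise is not read as a result about the interval.

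Centring changed which windows were separated and added windows in the lower direction. After centring 22 were separated upwards and 3 downwards (0.319% and 0.234% of all windows), and after quantile normalization 18 and 7 (0.321% and 0.267%). Centring ended the separation in 5 of the 26 windows, kept 21 and added 4. The absence of windows separated downwards therefore did not hold after centring or quantile normalization. Among the 706 windows that lacked a value in at least 1 sample, 7 were separated upwards and 7 downwards over the samples with a value, or 1.98%, against 1.24% of such autosomal windows. Separation is easier to reach with fewer samples, so these are not comparable with the 26.

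Some windows with large differences were not called, and their samples varied widely within a line. These 3 windows were chosen after their values were seen, as the uncalled ones with the largest difference. At 128774001 to 128775000 HCR samples ran from 60.7% through 71.0% to 77.0% and LCR samples from 16.7% through 40.2% to 69.0%, a difference of 30.7 points. At 127739001 to 127740000 the ranges were 34.8% through 50.2% to 65.7% and 9.43% through 20.4% to 53.2%, a difference of 25.2 points. In both windows LCR replicate 4 was the highest LCR sample and lay within the HCR range. At 123564001 to 123565000 HCR was lower by 20.1 points, and HCR replicate 1, at 69.1%, lay among the LCR samples, which ran from 58.7% to 84.0%.

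No single sample was always the one closest to the other line. Over the 25 called windows, HCR replicate 3 was the HCR sample nearest to LCR in 8, HCR replicates 1 and 6 in 6 each, HCR replicates 2 and 4 in 2 each and HCR replicate 5 in 1. Among LCR samples, LCR replicate 1 was nearest to HCR in 5, LCR replicates 3, 4 and 6 in 4 each, LCR replicate 2 in 3, LCR replicates 7 and 8 in 2 each and LCR replicate 5 in 1. HCR replicate 3 also had the lowest autosomal level of the HCR libraries, 33.8%, and LCR replicate 1 the highest of the LCR libraries, 36.2%. The part of these library levels in their nearness was not tested.

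The called windows were unevenly spaced. The longest stretch without one ran over 4587 kb, from 116903000 to 121489001, and 389 common windows were tested in it. From 115380001 to 129844000 all 19 called windows were higher in HCR, and the 3 lower ones lay before that. Only 5 pairs of called windows were within 100 kb of each other, and apart from the touching pair these pairs had the same direction.

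In steps of 1 Mb the line difference was largest between 127 and 129 Mb. After centring it was 2.37 points (SE 0.640) from 127 to 128 Mb and 2.11 points (SE 0.568) from 128 to 129 Mb, and the other 16 steps ran from -1.40 to 1.57 points. Among the 1267 autosomal steps of 1 Mb with at least 39 common windows, the values between the 5th and the 95th percentile ran from -0.988 to 1.18 points. In all, 4 steps were at or above the value from 127 to 128 Mb and 7 at or above that from 128 to 129 Mb. Since the interval was chosen by differences between the lines, the place of its steps among these is not read as a result. The centred difference was above 0 in 14 of the 18 steps, and the deposited one in 17. In 0 of the 18 steps were the lines separated, with or without centring.

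These 2 Mb, chosen after their values were seen, held 220 common windows. On deposited levels 8 were called and 10 separated, all higher in HCR. Of all windows tested, 0.569% were called (0.405% higher in HCR) and 0.71% separated (0.558% higher). Since this stretch was picked for its differences, its counts are not read against those shares. Centred HCR samples ran from 36.7% through 38.4% to 39.9% and LCR samples from 34.9% through 36.2% to 36.9%. In 5 of the 6 HCR samples the mean was above every LCR sample, and HCR replicate 6 was the exception. The centred difference was 2.23 points (SE 0.571), and it ran from 1.91 to 2.54 points when single samples were left out. Without the called windows it was 1.65 points, and 122 of the 220 windows (55.5%) had the higher centred mean in HCR.

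**Figure D3:**
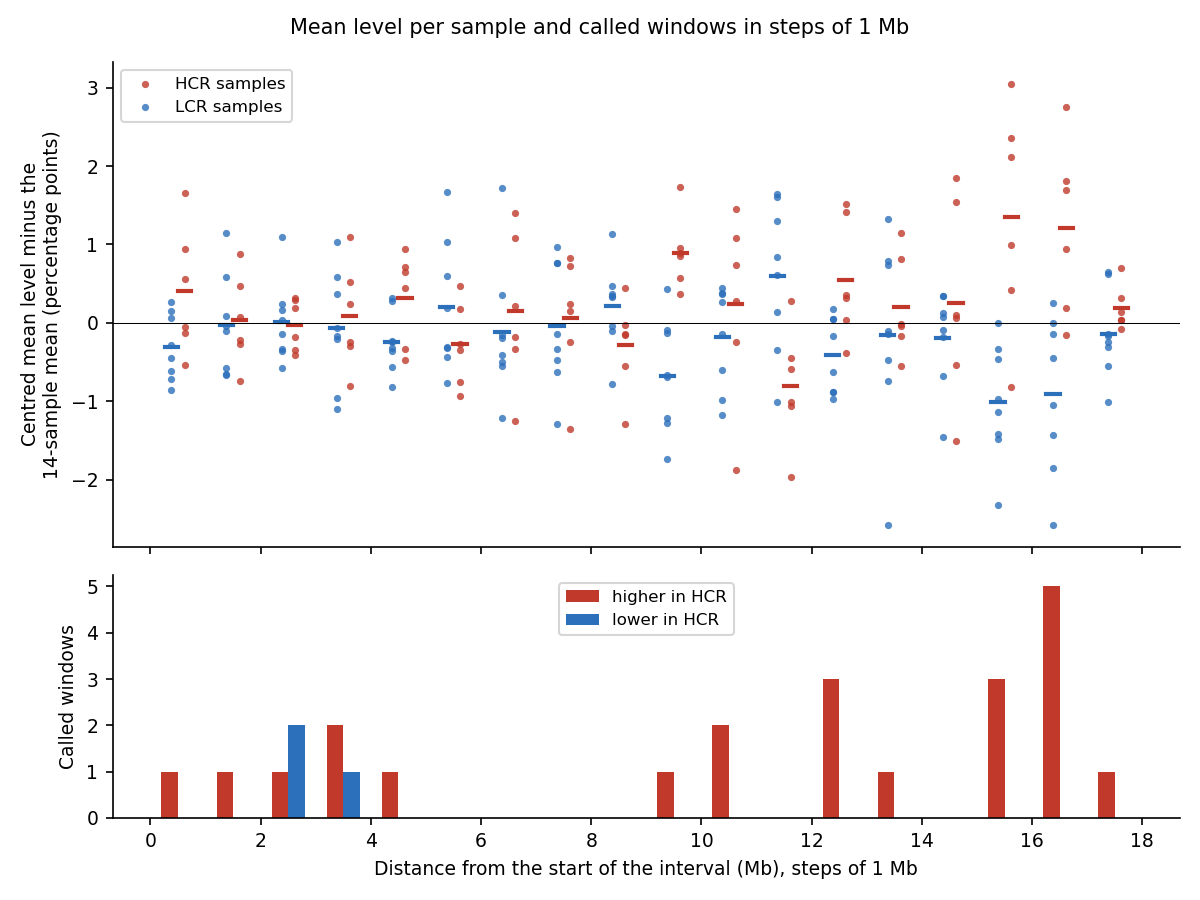
The upper panel shows the centred mean level of each sample in each of the 18 steps of 1 Mb, minus the mean of all 14 samples in that step, in percentage points; red points are HCR and blue points LCR samples, and bars are line means. The lower panel shows the number of called windows in each step; the steps 15 to 17 Mb from the start hold 8 of the 25 calls and the widest distance between the line means.

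Uncalled windows near called ones differed less than the called ones. This was largely fixed by the choice, since called windows were taken for their differences and neighbours for not being called. The fall is therefore not read as a measure of how far a difference extends. Only uncalled neighbours with a value in all 14 samples were counted. Uncalled windows touching a called one differed, in the direction of that window, by 4.75 points on average (8 windows, 7 of them in that direction), against 19.8 points at the called windows themselves. At over 1 to 5 kb the average was 1.26 points (18 windows) and at over 5 to 20 kb 1.29 points (80 windows), near the 1.59 points of the whole interval. After centring these averages were 3.62 points for touching windows, 0.376 and 0.612. Around all 754 called autosomal windows the deposited values were 2.54 points for 271 touching windows and 1.19 points at over 1 to 5 kb. Few windows touch a called one, so the value for the interval rests on 8 windows, among them 127986001 to 127987000 with 17.8 points. Touching windows with missing values were not in this average. Over the samples with a value, the one at 124729001 to 124730000 differed by 13.6 points and the one at 127271001 to 127272000 by 8.25. Those starting at 129844001, 128259001 and 127782001 differed by 2.04, -0.318 and -5.35 points.

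**Figure D4:**
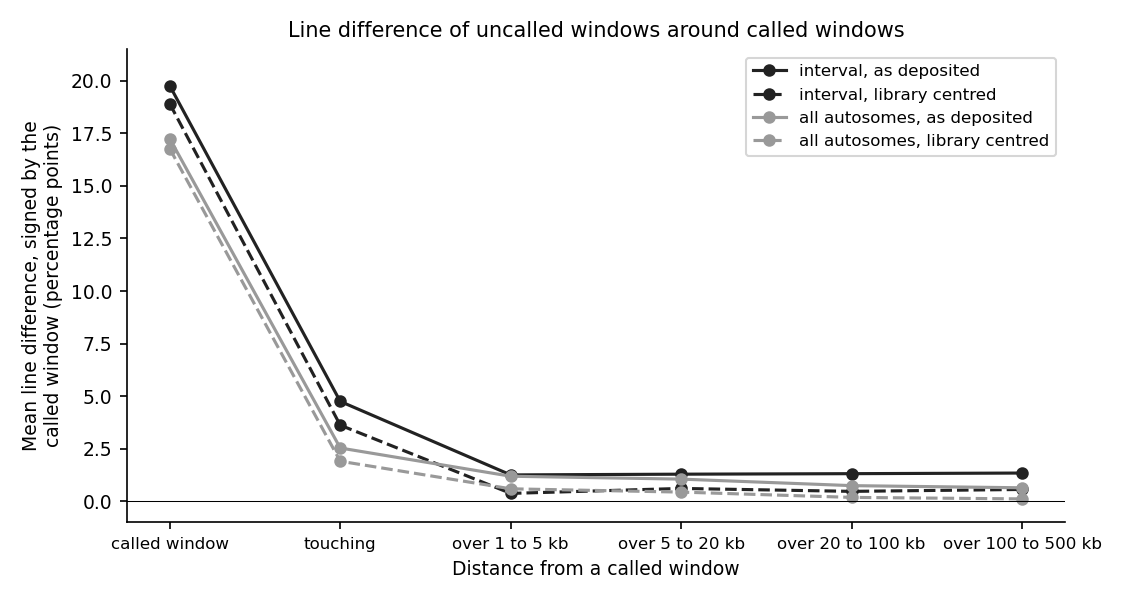
Mean difference between the lines, in percentage points and signed by the direction of the called window, of the called windows themselves and of uncalled windows at increasing distance from them. Black lines are the interval and grey lines all autosomes, solid as deposited and dashed after centring. In each the value falls from over 15 points at the called window to under 5 points in the touching one. That fall was largely fixed by the choice of called windows and uncalled neighbours.

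Neighbouring windows varied together within lines only weakly, and how weakly depended on scale. Each window's values were taken as deviations from the own line's mean and correlated between 2 windows over the 14 samples. All windows share the same 14 libraries, so these values are descriptions. With centred libraries the median r was 0.26 for 442 touching pairs and 0.03 for 2245 pairs at over 1 to 10 kb, and 0.01 or less beyond 100 kb. Over all autosomes these medians were 0.27 and 0.05. In HCR samples alone the touching pairs had a median r of 0.30 and in LCR samples alone 0.27.

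Centring subtracts the same value from all windows of a library, which can make windows with little variation of their own alike. Whether this raised the correlation of touching unmethylated windows was not tested. On deposited levels the median r of touching pairs was 0.11 in the interval and 0.07 over all autosomes. For pairs at over 1 to 10 kb the deposited medians were 0.04 and 0.03. In windows with mean levels of 20 to 80%, with centred libraries, it was 0.04 for the 137 touching pairs of the interval and 0.03 over all autosomes. Among these 137 pairs, on deposited levels, the median r was 0.10, 15 had r of at least 0.5 and 5 had r of -0.5 or less. At over 10 to 100 kb the median for windows of middle level was 0.00 in the interval and 0.01 over all autosomes.

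**Figure D5:**
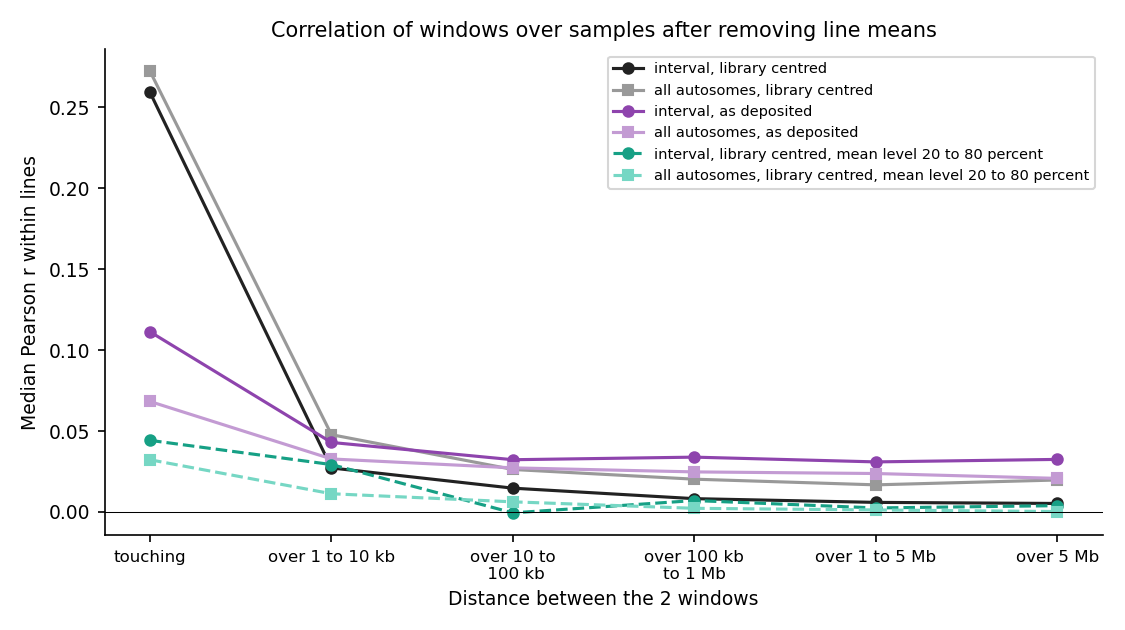
Median Pearson correlation between 2 windows over the 14 samples after removal of line means, against the distance between the windows. Circles are the interval and squares all autosomes, for centred libraries, deposited levels and windows of 20 to 80% mean level; the value of 0.26 for touching windows of the interval falls to 0.11 on deposited levels and to 0.04 in windows of middle level.

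Pairs of called windows also varied together only weakly within lines. Among the 41 pairs of called windows over 100 kb to 1 Mb apart, 34 had the same direction and the median r within lines was 0.10, from -0.77 to 0.73 on centred levels. Among the 4 pairs over 10 to 100 kb apart all had the same direction, and the median r was 0.27, from -0.05 to 0.51. At over 5 Mb the median was -0.03 over 173 pairs.

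Other intervals that had also been picked for their calls are given for comparison. The interval from 2 to 10 Mb on chromosome 2 had 16 called among 190 common windows (8.42%), 8 higher and 8 lower in HCR, and that from 78 to 86 Mb on chromosome 10 had 15 among 1141 (1.31%), 10 higher and 5 lower. Here 25 of 1719 (1.45%) were called, 22 higher and 3 lower, and the rest of chromosome 7 had 51 of 6308 (0.808%), 38 higher and 13 lower. The centred mean differences of the intervals on chromosomes 2 and 10 were -0.77 points (SE 0.364) and -0.071 points (SE 0.129). The differences between these intervals were not tested. Genes were not analysed here, since the gene positions at hand belong to another assembly.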

How the data were processed

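Per the labels' protocols, each RRBS library started from 100 ng of soleus DNA, and libraries were pooled before bisulfite conversion; how they were pooled was not given in the labels. Per the submitters' processing notes, FastQC, Trim Galore 0.6.10, Bismark and Bowtie2 were used with rn7. The deposited values are the percent methylation of each library in 1000 bp windows, per the file headers, with no read counts; every window has a value in at least 4 samples of each line. For the coverage minimum and the treatment of duplicate reads, nothing was given in the sources used here. 0 sample columns were left unused.

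Windows with a value in all 14 samples (135802) were fitted in limma 3.58.1 (R 4.3.3) as log2((level + 0.01)/(1 - level + 0.01)), with a single factor for line, a mean-variance trend, two-sided p-values and Benjamini-Hochberg adjustment over all of them. Data were simulated with independent normal noise and the spreads of these windows. Of the windows changed by 1 log2 unit 40 of 100 were called, and of those changed by 2 units 88 of 100. In addition, 10 unchanged windows were called. All changed windows had mean levels between 20 and 80%, so these rates do not describe called windows under 20%. Centring subtracts each library's mean over 20 autosomes, on the percent scale for levels and on the log2 scale for calls. All else was computed in Python 3.11.15 with scipy 1.17.1, pandas 2.3.3 and numpy 2.4.6. The members, lists and tests were chosen with earlier results of these data known. Named windows are the 10 called members with the largest higher and up to 8 with the largest lower level in HCR, which gave 3, any touching called pair of one direction, which gave 0, and the windows at both ends; others are said to be chosen after their values were seen or belong to counts and neighbours of these. Alternatives were centring, quantile normalization, untransformed levels, other offsets, minimum differences, level ranges, all windows, no variance moderation, a replicate block, and each sample left out in turn.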

Additional observations from a re-analysis of the deposited data

Results flagged for a closer look

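Each line was searched for a sample far from its fellows in the 13 named windows, in the interval's level as deposited and centred, and in the number of windows without a value. The measure was the gap to the nearest fellow over the range of the line. That made 32 sets, of which 3 had such a sample. The nominal rate was 1 set in 20. The sets share samples and some lie near 0, so that rate need not hold and the 3 are not read against it. At 124296001 to 124297000 LCR replicate 4 had 18.7% methylation and the other LCR samples 2.59% to 9.25%. At 114378001 to 114379000 LCR replicate 4 had 3.58% and the other LCR samples 28.5% to 47.6%. In the same window HCR replicate 3 had 16.7% and the other HCR samples 0% to 1.13%. In each case the outlying sample lay on the side of the other line. For the HCR samples at 114378001 to 114379000, with the others near 0, no other side was open.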

How the results depend on the processing

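The 25 called windows of the interval stayed within 1.5 times that number under 8 of the 11 settings that kept or changed the scale, the filter or the samples other than one by one. The exceptions were a minimum difference of 25 points (8 calls, 7 higher and 1 lower in HCR), the 12 samples numbered 1 to 6 fitted without a block (14 calls) and those samples with the replicate number as a block (2 calls, 1 in each direction). The replicate numbers showed no sign of pairing the samples in their levels. The correlation of same-numbered HCR and LCR samples over autosomal windows, after removal of line means, ran from -0.031 to 0.035. Of the 6 HCR samples, 2 correlated best with their own number. Whether same-numbered samples shared a processing step was not tested. Without single samples there were 16 to 24 calls, 14 to 22 higher and 1 to 3 lower. Of the calls, 19 remained after centring and 19 after quantile normalization.

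The 26 separated windows became 40 when windows with missing values were added (33 upwards and 7 downwards), which tests more windows on fewer samples. They became 27 to 42 without single samples, where leaving out a sample can only keep or add them. The interval's mean difference of 1.59 points was 3.01 points as a difference of medians over windows, against 1.92 points for autosomal medians (the cause was not tested), and 1.32 to 2.01 points without single samples. The median correlation of touching windows, 0.26, was 0.242 as a Spearman correlation, 0.111 on deposited levels, 0.0966 on the log2 logit scale and 0.0442 in windows of middle level. It ran from 0.206 to 0.266 without single samples. The line difference in windows without a value ran from -19.2 to 26.6 without single samples, with exact permutation p-values from 0.421 to 0.974. All 13 named called windows kept their direction in every alternative. In the fits that left out a sample, those at 115089001 to 115090000 and 114600001 to 114601000 lost their calls in 11 and 12 of 14, and the other 11 kept theirs. Depth was unknown, so no value has a counting error, and windows of few reads cannot be told from others. The part of counting error in a difference, or in the value of a single sample, cannot be judged, whatever its size.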
